A study of Homo sapiens with 15 samples.

Results

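The transcripts of 5 genes of the G1 to S transition of the cell cycle were examined in HEK293T, an established human cell line of embryonic kidney origin. The genes were CCNE1, CCNE2, E2F1, MCM3 and CDC25A, taken by name from the platform's table of probe sets and genes, and all 5 were among the 14884 genes tested. Each had 1 named probe set, 16860418 for CCNE1, 17079293 for CCNE2, 16918445 for E2F1, 17020019 for MCM3 and 16953279 for CDC25A. The measurements came from 15 Affymetrix whole-transcript arrays of total RNA in 5 groups of 3. Cells of the groups received siRNA against LOC550643 (4 siRNAs pooled), against Dcp2, against DcpS or against GAPDH, or a non-silencing siRNA that matches no human gene. LOC550643 encodes NoBody, a small P-body protein. Dcp2 removes the cap of mRNA during its decay, and DcpS breaks down the cap structure that remains. GAPDH is a glycolytic enzyme. DcpS and GAPDH siRNA served the study as unrelated comparisons. All 5 groups, the non-silencing one included, received actinomycin D, a blocker of transcription, at 1 ug per mL for 4 hours from 48 hours after transfection. The levels therefore followed both the amount of mRNA before the drug and its loss during it, and no array without the drug was analysed here. The submitters' design text notes that transcriptional responses outweighed the effect on mRNA decay. The labels leave unsaid whether the arrays of a group hold RNA of separate cultures, and p-values here rest on a spread that may be only technical.

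Entry into S phase begins when cyclin D kinases, and then cyclin E bound to CDK2, phosphorylate the retinoblastoma protein and release E2F transcription factors. E2F1 in turn raises transcription of the E cyclins, of CDC25A, of MCM genes and of its own gene. CDC25A is a phosphatase that removes inhibitory phosphates from CDK2, and MCM3 is a subunit of the MCM helicase that is loaded on replication origins in G1. HEK293T cells carry the SV40 large T antigen, which binds the retinoblastoma protein, so their G1 control differs from that of untransformed cells.

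Values were log2 expression from RMA, in which a difference of 1 is a doubling, and levels of different genes cannot be set against each other on this scale. The array medians lay between 4.01 and 4.08 log2 units, and arrays correlated within groups at 0.983 to 0.991 and between groups at 0.981 to 0.991. DCP2 averaged 6.34 ± 0.10 log2 units with its own siRNA and 8.14 ± 0.13 with non-silencing siRNA (SD, n = 3 each), and GAPDH 5.97 ± 0.24 with its own siRNA and 7.20 ± 0.10 with non-silencing siRNA (SD, n = 3 each). No probe set was named LOC550643 or DCPS, so the knockdown by these 2 siRNAs is not analysed here. DCP2 was also lower with DcpS siRNA than with non-silencing siRNA, at 7.60 ± 0.27 (SD, n = 3; limma adjusted p = 0.0252), a call that leaving out DcpS replicate 1, DcpS replicate 2, non-silencing replicate 2 or non-silencing replicate 3 ended. Of 6 listed markers of HEK293T cells 4 were measured. KRT18 and VIM lay above 94.2% and 89.2% of genes by mean level, and KRT8 and PAX2 above 59.4% and 52.8%. The measured markers of other cell types were 4 of 10, with DCN, PECAM1, ALB and EPCAM above 2.33%, 15.8%, 20.1% and 41.7% of genes.

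The promoters of E2F1, MCM3, CDC25A and CCNE1 are printed because these genes are known E2F targets and because their transcripts were all higher with LOC550643 or Dcp2 siRNA than with DcpS siRNA. The windows run from 250 bases before to 50 after the gene start in RefSeq's GRCh38.p14, 5′ to 3′ on the gene's strand. A promoter window was at hand for 4 of the 5 genes. There was none for CCNE2, which was not searched. Capitals mark the E2F letters TTTCCCGC, TTTCGCGC, TTTGCCGC or TTTGGCGC on either strand, of which at least 1 was found in 3.31% of 35116 promoter windows.
E2F1, chr20:33686336-33686635, minus strand: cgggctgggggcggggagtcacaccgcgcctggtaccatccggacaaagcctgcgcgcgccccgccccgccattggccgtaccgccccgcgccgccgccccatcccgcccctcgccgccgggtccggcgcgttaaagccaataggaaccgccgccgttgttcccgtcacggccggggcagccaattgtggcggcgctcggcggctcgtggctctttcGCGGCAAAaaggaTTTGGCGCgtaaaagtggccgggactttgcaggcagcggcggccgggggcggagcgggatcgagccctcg
MCM3, chr6:52284693-52284992, minus strand: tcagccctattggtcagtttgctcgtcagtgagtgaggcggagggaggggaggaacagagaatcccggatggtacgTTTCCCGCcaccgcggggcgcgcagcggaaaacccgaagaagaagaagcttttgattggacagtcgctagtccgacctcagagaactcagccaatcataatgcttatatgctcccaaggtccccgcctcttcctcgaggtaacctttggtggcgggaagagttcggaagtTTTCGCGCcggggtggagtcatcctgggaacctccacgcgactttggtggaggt
CDC25A, chr3:48188368-48188667, minus strand: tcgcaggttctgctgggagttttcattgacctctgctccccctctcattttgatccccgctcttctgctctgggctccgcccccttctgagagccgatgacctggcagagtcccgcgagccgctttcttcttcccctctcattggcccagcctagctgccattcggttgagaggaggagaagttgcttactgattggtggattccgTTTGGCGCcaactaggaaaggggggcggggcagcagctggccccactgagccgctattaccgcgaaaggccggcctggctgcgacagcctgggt
CCNE1, chr19:29811741-29812040, plus strand: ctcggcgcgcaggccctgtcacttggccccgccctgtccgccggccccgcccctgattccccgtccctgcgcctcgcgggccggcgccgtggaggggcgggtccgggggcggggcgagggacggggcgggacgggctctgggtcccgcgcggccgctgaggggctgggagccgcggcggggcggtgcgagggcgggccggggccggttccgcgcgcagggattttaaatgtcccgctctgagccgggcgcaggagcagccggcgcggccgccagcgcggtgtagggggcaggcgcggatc

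E2F1 had 2 matches, the first letters of which lay 33 and 20 bases before the gene start on its strand, and they do not overlap. MCM3 had 2, at 174 and 4 bases before the start. CDC25A had 1, at 44 bases before it. In the CCNE1 window, 81% G and C, these letters do not occur. A match of letters describes the sequence and is not a measured binding site.

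All 5 transcripts differed among the 5 groups by limma's moderated F test over all genes, at which 12.2% of the 14884 genes were called (adjusted p under 0.05, here and for every call below). The adjusted p was 0.000501 for MCM3, 0.00237 for CDC25A, 0.00661 for CCNE1, 0.012 for E2F1 and 0.0171 for CCNE2. The group mean with DcpS siRNA was the lowest of the 5 for each of them. The highest was with Dcp2 siRNA for CCNE1, E2F1 and CDC25A, and with GAPDH siRNA for CCNE2 and MCM3. In RNA from whole cultures, fewer cells in a phase and less RNA of a gene per cell cannot be told apart. The members, and the gene lists below, were chosen with earlier results of these data known. Their counts beside shares of all genes, here and below, are therefore descriptive and no test of enrichment.

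MCM3, the helicase subunit, had log2 values of 9.55, 9.53 and 9.61 with DcpS siRNA, against 10.04, 10.09 and 10.04 with non-silencing siRNA. It had 10.15, 10.17 and 10.03 with LOC550643 siRNA, 10.02, 10.04 and 10.06 with Dcp2 siRNA, and 10.14, 10.28 and 10.16 with GAPDH siRNA. Every DcpS array lay below all 12 others, by more than the spread within any group. With DcpS siRNA MCM3 fell to 71.1% of its non-silencing level, a log2 difference of -0.49 (SE 0.08, 95% interval -0.65 to -0.33, limma adjusted p = 0.00221). That call was kept without each of the 15 arrays in turn and in the other 8 alternative settings. In order of mean, GAPDH, LOC550643, non-silencing and Dcp2 siRNA followed each other closely, and none of these 4 differed from another by the test, the widest gap being -0.15 for Dcp2 against GAPDH siRNA (95% interval -0.32 to 0.01, adjusted p = 0.353).

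CCNE2, which encodes the second E cyclin, was also lowest with DcpS siRNA, with 6.09, 6.20 and 6.51 log2 units. The non-silencing arrays had 6.53, 6.72 and 6.82, so the groups lay close but did not overlap. The difference of -0.42 (SE 0.13, 95% interval -0.70 to -0.15) did not pass the test (adjusted p = 0.0914). It passed without DcpS replicate 3, the highest of the 3 DcpS arrays (adjusted p = 0.0397). The other groups were at 6.86 ± 0.19 with LOC550643, 6.78 ± 0.06 with Dcp2 and 6.90 ± 0.18 with GAPDH siRNA, against 6.69 ± 0.14 with non-silencing siRNA (SD, n = 3 each). These ranges overlapped, and no pair of these 4 groups passed the test.

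CDC25A, the CDK2-activating phosphatase, took another order. Its values were 9.37, 9.34 and 9.44 with LOC550643 siRNA, 9.45, 9.39 and 9.55 with Dcp2 siRNA and 9.31, 9.22 and 9.27 with GAPDH siRNA. They were 8.49, 8.86 and 8.84 with DcpS siRNA and 8.54, 8.95 and 9.05 with non-silencing siRNA. The LOC550643, Dcp2 and GAPDH arrays all lay above every DcpS and non-silencing array, and the DcpS and non-silencing arrays overlapped. CDC25A was 1.53-fold its non-silencing level with Dcp2 siRNA (log2 difference 0.61, SE 0.13, 95% interval 0.35 to 0.88, limma adjusted p = 0.0241) and 1.45-fold with LOC550643 siRNA (0.53, SE 0.13, 0.27 to 0.80, adjusted p = 0.0434). The Dcp2 call was lost without any of the 3 Dcp2 arrays or without non-silencing replicate 1 or 2 (adjusted p up to 0.107). The LOC550643 call was kept only without DcpS replicate 1 or non-silencing replicate 3 and was lost without any of the other 13 arrays (adjusted p up to 0.194). With GAPDH siRNA the difference was 0.42 (95% interval 0.15 to 0.68) and was not called (adjusted p = 0.115). Non-silencing replicate 1 was the lowest of its group. Without it the differences were 0.46 (adjusted p = 0.107) for Dcp2, 0.38 (adjusted p = 0.194) for LOC550643 and 0.27 (adjusted p = 0.366) for GAPDH siRNA.

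CCNE1, the first E cyclin gene, was high with LOC550643 and Dcp2 siRNA and, unlike CDC25A, not with GAPDH siRNA. It had 7.77, 7.70 and 7.79 log2 units with LOC550643 siRNA and 7.79, 7.72 and 7.91 with Dcp2 siRNA. The other groups had 7.12, 7.09 and 7.54 with DcpS, 7.44, 7.42 and 7.27 with GAPDH and 7.41, 7.22 and 7.34 with non-silencing siRNA. All 6 LOC550643 and Dcp2 arrays lay above the other 9. Against non-silencing siRNA CCNE1 rose 1.40-fold with Dcp2 siRNA (log2 difference 0.48, SE 0.11, 95% interval 0.24 to 0.72, limma adjusted p = 0.0395). With LOC550643 siRNA the difference was 0.43 (95% interval 0.19 to 0.67), which did not pass (adjusted p = 0.0774). Neither was settled over the arrays. The Dcp2 call was lost without any Dcp2 or non-silencing array, without LOC550643 replicate 1 or 2 and without GAPDH replicate 1 (adjusted p up to 0.133), and the LOC550643 difference was called without DcpS replicate 3 (adjusted p = 0.0251). DcpS and GAPDH siRNA left CCNE1 at -0.07 (95% interval -0.31 to 0.17) and 0.05 (-0.19 to 0.29) from non-silencing siRNA, and DcpS replicate 3 lay above the other DcpS arrays and all non-silencing arrays.

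E2F1, the transcription factor gene, had 8.34, 8.32 and 8.25 log2 units with LOC550643 siRNA, 8.28, 8.39 and 8.52 with Dcp2 siRNA and 8.28, 8.18 and 8.11 with GAPDH siRNA. It had 7.82, 8.07 and 7.85 with DcpS siRNA and 8.10, 8.07 and 8.05 with non-silencing siRNA. The LOC550643, Dcp2 and GAPDH ranges lay above the non-silencing range, which was narrow (SD 0.03), and DcpS replicate 2 lay inside it. No difference from non-silencing siRNA was called in the model of all arrays and genes. They were 0.32 with Dcp2 (95% interval 0.13 to 0.52, adjusted p = 0.078; 0.0337 without dim genes), 0.23 with LOC550643 (0.04 to 0.43, adjusted p = 0.283), 0.12 with GAPDH (-0.08 to 0.31, adjusted p = 0.629) and -0.16 with DcpS siRNA (-0.35 to 0.04, adjusted p = 0.437).

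**Figure D1:**
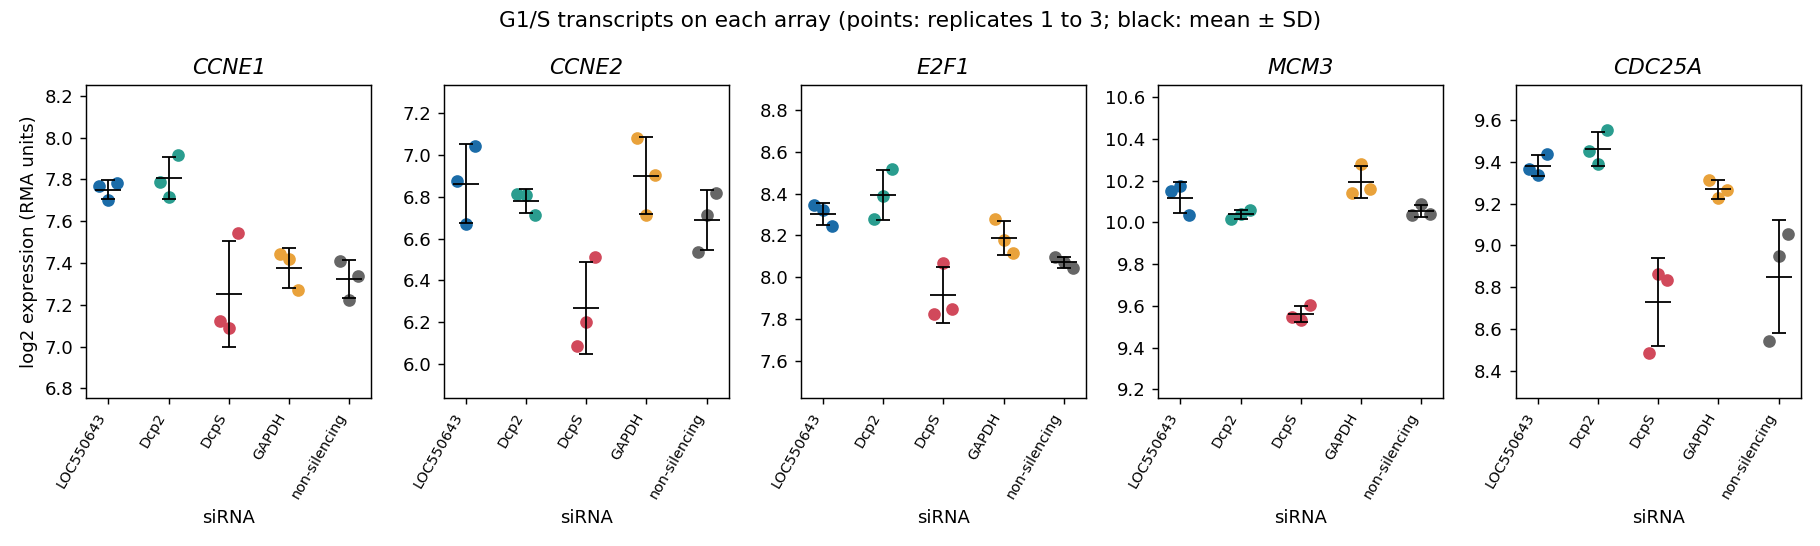
Log2 expression (RMA units) of the 5 transcripts on each array, with 3 arrays per siRNA as points and the mean ± SD in black. Each panel spans the same 1.5 log2 units, placed at that gene's own level. The DcpS arrays of MCM3 sit between 9.53 and 9.61, below all others, and the LOC550643 and Dcp2 arrays of CCNE1 sit at 7.70 and above.

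Counted by comparison with non-silencing siRNA, 1 of 5 members rose with LOC550643 siRNA (CDC25A), where 1.57% of all genes were called and 0.658% were higher. With Dcp2 siRNA 2 of 5 rose (CCNE1 and CDC25A), against 1.98% of all genes called and 1.05% higher. With DcpS siRNA 1 of 5 fell (MCM3), against 3.61% of all genes called and 1.85% lower. With GAPDH siRNA 0 of 5 were called, against 2.0% of all genes. The median log2 difference of the 5 was 0.23 with siRNA against LOC550643, 0.32 with that against Dcp2, -0.16 with that against DcpS and 0.14 with that against GAPDH, beside medians over all genes between -0.01 and 0.00. All 4 comparisons share the non-silencing arrays. In limma fits to only the 6 arrays of a comparison, 0 members were called with LOC550643 siRNA and 0 with Dcp2 siRNA, and MCM3 stayed called with DcpS siRNA (adjusted p = 0.0499).

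**Figure D2:**
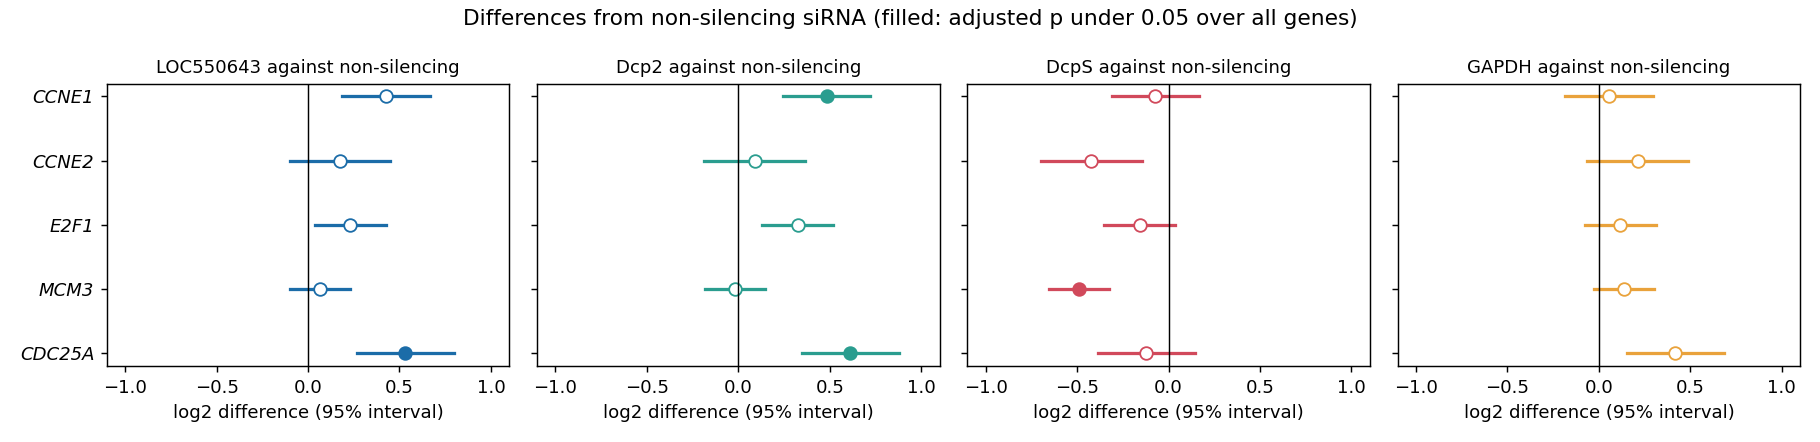
Log2 difference of each transcript from non-silencing siRNA, with its 95% interval from the model, for the 4 targeting siRNAs. Filled points passed an adjusted p of 0.05 over all genes. CDC25A is filled with LOC550643 (0.53) and Dcp2 siRNA (0.61), CCNE1 with Dcp2 siRNA (0.48) and MCM3 with DcpS siRNA (-0.49).

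Set against each other, the targeting siRNAs separated by DcpS. With LOC550643 siRNA 5 of 5 members were higher than with DcpS siRNA, where 6.40% of all genes were called and 3.49% were higher. The log2 differences were 0.65 for CDC25A (SE 0.13, adjusted p = 0.00499), 0.60 for CCNE2 (SE 0.13, adjusted p = 0.0115) and 0.56 for MCM3 (SE 0.08, adjusted p = 0.000497). They were 0.50 for CCNE1 (SE 0.11, adjusted p = 0.015) and 0.39 for E2F1 (SE 0.09, adjusted p = 0.0178). The 3 LOC550643 arrays lay above the 3 DcpS arrays for every one of the 5. How many of all genes separate in this way was not counted, so this only describes the values. The calls of MCM3 and CDC25A were kept without each array in turn. That of CCNE1 was lost without LOC550643 replicate 1 or DcpS replicate 1 or 2, that of CCNE2 without LOC550643 replicate 3 or DcpS replicate 1, and that of E2F1 without LOC550643 replicate 1 or 2 or DcpS replicate 1 or 3 (adjusted p up to 0.0755).

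With Dcp2 siRNA, too, 5 of 5 were higher than with DcpS siRNA, where 5.64% of all genes were called and 2.44% were higher. CDC25A was 1.66-fold higher (log2 difference 0.73, SE 0.13, limma adjusted p = 0.00266), CCNE1 1.47-fold (0.55, SE 0.11, 0.00815), CCNE2 1.43-fold (0.51, SE 0.13, 0.0291), E2F1 1.40-fold (0.48, SE 0.09, 0.00507) and MCM3 1.39-fold (0.47, SE 0.08, 0.00194). The calls of CDC25A, CCNE1, E2F1 and MCM3 were kept without each array in turn. The CCNE2 call was lost without any Dcp2 array or DcpS replicate 1 or 2 (adjusted p up to 0.131). This comparison and the one before it share the DcpS arrays, and in fits to only the arrays compared 2 of 5 members were called in each.

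Between DcpS and GAPDH siRNA, the study's unrelated comparisons, 3 of 5 members were lower with DcpS, where 5.98% of all genes were called and 2.47% were lower. These were CCNE2 at -0.63 (SE 0.13, adjusted p = 0.00726), MCM3 at -0.63 (SE 0.08, adjusted p = 0.000148) and CDC25A at -0.54 (SE 0.13, adjusted p = 0.0164). The CDC25A call was lost without DcpS replicate 1 or GAPDH replicate 1 (adjusted p up to 0.0787). E2F1 was at -0.28 (95% interval -0.47 to -0.08, adjusted p = 0.0953) and CCNE1 at -0.13 (-0.37 to 0.11, adjusted p = 0.633), and neither was called. E2F1 was called without DcpS replicate 2 (adjusted p = 0.0495). In a fit to only these 6 arrays 1 of 5 was called.

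LOC550643 and Dcp2 siRNA, the pair tied to P-bodies, differed in 0 of 5 members by limma, where 3.20% of all genes were called. The differences lay between -0.09 and 0.08, and the widest 95% interval, that of CCNE2, ran from -0.19 to 0.36. A missed threshold does not show that the 2 siRNAs acted alike. Against GAPDH siRNA 0 of 5 were called with LOC550643 (4.08% of all genes) and 0 of 5 with Dcp2 siRNA (2.79%). CCNE1 came nearest, at 0.37 with LOC550643 (95% interval 0.13 to 0.61, adjusted p = 0.0792) and 0.43 with Dcp2 siRNA (0.19 to 0.67, adjusted p = 0.0552), without overlap of the arrays in either case. Its difference between LOC550643 and GAPDH siRNA was called without DcpS replicate 3 (adjusted p = 0.0263), and that between Dcp2 and GAPDH siRNA without DcpS replicate 2 or 3 (adjusted p down to 0.0171).

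**Figure D3:**
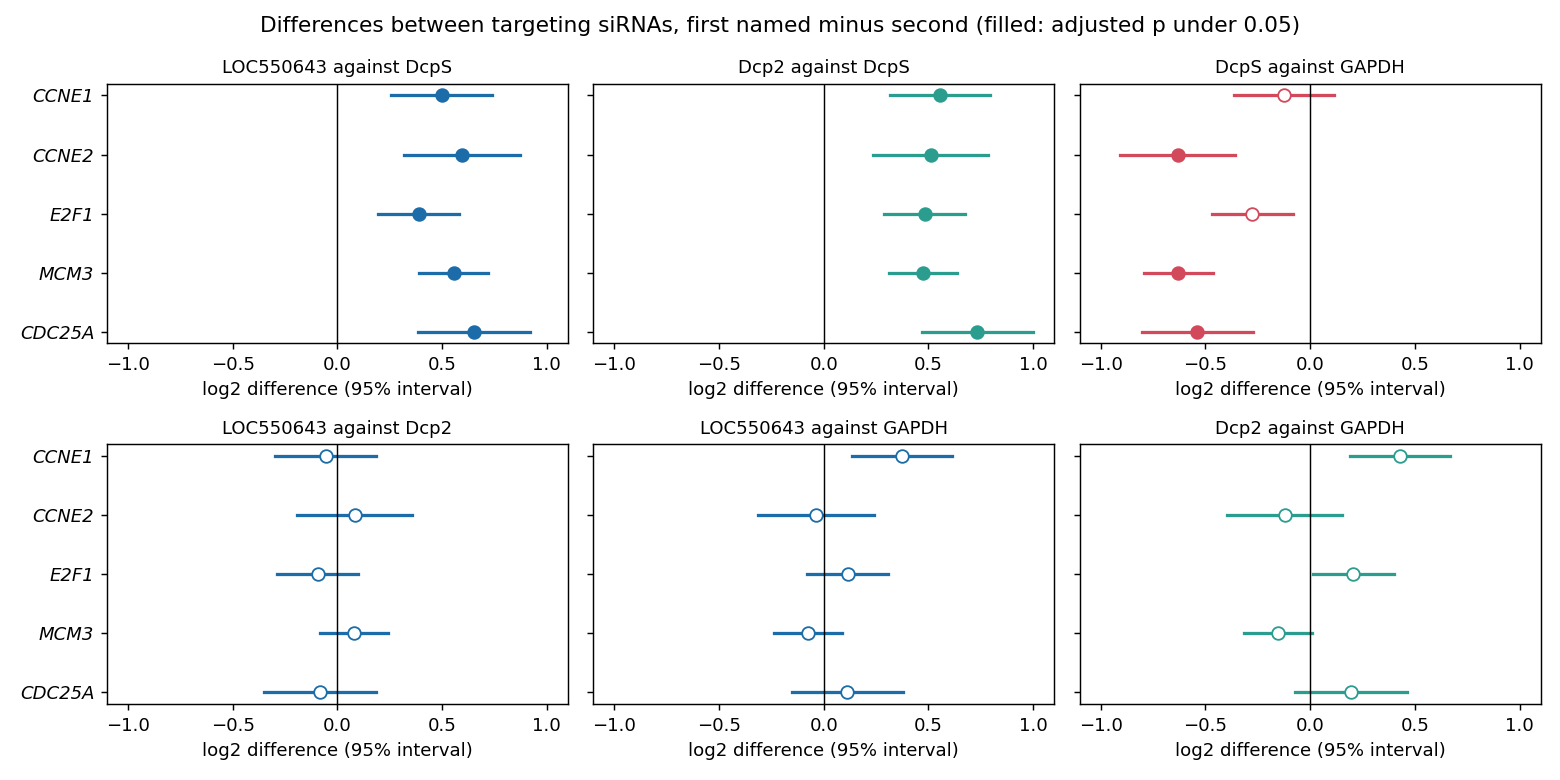
Log2 difference with its 95% interval between targeting siRNAs, the first named minus the second, with filled points past an adjusted p of 0.05. In the top row all 5 transcripts are higher with LOC550643 or Dcp2 than with DcpS siRNA, and 3 are lower with DcpS than with GAPDH siRNA. In the bottom row, without DcpS, no point is filled.

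Other genes of the transition were read from lists, of which many members were not measured. Among cyclins and kinases of G1 and S (9 of 10 measured), CDK2, the kinase partner of cyclin E, fell by 0.63 log2 units with Dcp2 siRNA (SE 0.09, limma adjusted p = 0.0045), a call kept without each array in turn. In the same arrays CCNE1 and CDC25A were higher. With DcpS siRNA CCNA2, the cyclin of S phase and G2, rose by 0.77 (adjusted p = 0.00482) and CDK7, a kinase that activates other CDKs, by 0.49 (adjusted p = 0.02). The CDK7 call was lost without DcpS replicate 3 or any non-silencing array. The list's medians lay between -0.08 and 0.03 in the 4 comparisons, and 0 members were called with LOC550643 or GAPDH siRNA.

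Of 9 measured members of the E2F and retinoblastoma family, RBL2, which encodes the pocket protein p130, fell by 0.68 with Dcp2 siRNA (adjusted p = 0.00918), a call lost without non-silencing replicate 1. RBL1, the gene of the related p107, rose by 0.57 with GAPDH siRNA (adjusted p = 0.0369). That call was lost without GAPDH replicate 1 or 3, non-silencing replicate 1 or 2 or Dcp2 replicate 3. RBL1 was at 0.50 with LOC550643, 0.50 with Dcp2 and 0.22 with DcpS siRNA, none of them called. Positive differences were thus not limited to GAPDH siRNA, and all of them share the non-silencing arrays. No other member passed in the 4 comparisons. Of 7 CDK inhibitor genes CDKN2A alone was measured, and it was not called, with differences between -0.31 and -0.09.

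Of 7 measured CDC25 phosphatase and checkpoint genes, 1 was called. CLSPN, which encodes the checkpoint adaptor claspin, was at -0.50 with DcpS siRNA (adjusted p = 0.046), and its call was lost with the replicate number as a block (adjusted p = 0.0513). It was kept only without LOC550643 replicate 1 or 2, DcpS replicate 2 or GAPDH replicate 1 or 3, and lost without each of the other arrays. In the ubiquitin system that removes cyclin E, E2F1 and CDC25A (9 of 12 measured), DcpS siRNA raised CCNF, the F-box protein cyclin F, by 0.63 (adjusted p = 0.0127) and FBXW11, an F-box protein of the CDC25A ligase, by 0.47 (adjusted p = 0.00589). USP28, a deubiquitinase, was called lower with DcpS siRNA alone, by 0.39 (adjusted p = 0.0351). Its uncalled differences were of similar size, at -0.31 with LOC550643, -0.34 with Dcp2 and -0.34 with GAPDH siRNA. BTRC, the paralog of FBXW11, fell by 0.45 with GAPDH siRNA (adjusted p = 0.0366). CCNF was not called without DcpS replicate 2. USP28 was not called without DcpS replicate 2 or 3, any non-silencing array or Dcp2 replicate 2. BTRC was not called without GAPDH replicate 1 or 2, any non-silencing array, LOC550643 replicate 2 or Dcp2 replicate 2.

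MCM3 belongs to the machinery of origin licensing and unwinding, of which 19 of 26 other genes were measured. With DcpS siRNA 2 of them rose and 2 fell, 17 had negative differences, and the median was -0.18, beside a median of 0.00 over all genes. Of all genes 1.76% were called higher and 1.85% lower, and 50.5% had positive differences. MCM8, a related helicase, fell by 0.47 (adjusted p = 0.0114) and GINS1, a subunit of the active helicase complex, by 0.38 (adjusted p = 0.0308). DBF4, the activator of the CDC7 kinase, rose by 0.46 (adjusted p = 0.0316), and MCMBP, which binds MCM subunits, by 0.31 (adjusted p = 0.0463). The MCMBP call was lost with the replicate block (adjusted p = 0.0588) and without each array but DcpS replicate 2. The 4 calls dropped to 3 without any single LOC550643, Dcp2 or GAPDH array, to 1 without DcpS replicate 1 or non-silencing replicate 1 or 3, to 2 without DcpS replicate 2 or 3, and to 0 without non-silencing replicate 2 or in a fit to the DcpS and non-silencing arrays alone. The list had 0 calls with LOC550643 siRNA (median 0.01) and 0 with Dcp2 siRNA (median -0.02). With GAPDH siRNA MCM2 fell by 0.39 (adjusted p = 0.02), a call lost without GAPDH replicate 1 or 3 or any non-silencing array.

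The partners of MCM3 in the hexameric helicase are given although the naming rule did not choose them, and their values were seen first. With DcpS siRNA, where MCM3 was at -0.49, MCM2 was at -0.21, MCM4 at -0.18, MCM7 at -0.15, MCM5 at -0.13 and MCM6 at -0.13. All 6 were negative, and MCM3 alone was called (adjusted p of the others 0.192 to 0.567). Whether MCM3 fell further than its partners was not tested.

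Of 6 measured genes of 28 for the replication fork and nucleotide supply, 1 was called. TYMS, thymidylate synthase, fell by 0.62 with Dcp2 siRNA (adjusted p = 0.0281), a call lost without any Dcp2 array or non-silencing replicate 1 or 2. It was at -0.52 with LOC550643, -0.33 with DcpS and -0.16 with GAPDH siRNA, none of them called.

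Genes of G2 and M phase, a list also chosen with earlier results known, were set beside the G1/S transcripts in the same arrays. With DcpS siRNA 7 of 11 measured rose and 0 fell, with 11 positive and a median of 0.49. Of all genes 1.76% were called higher and 50.5% had positive differences. KIF20A, a kinesin of cytokinesis, was at 0.86 (adjusted p = 0.00724), the mitotic cyclin genes CCNB1 and CCNB2 at 0.60 and 0.49 (adjusted p = 0.00814 and 0.00669), and BUB1, a spindle checkpoint kinase, at 0.54 (adjusted p = 0.00746). The count lay between 6 and 8 without single arrays and was 1 in a fit to the DcpS and non-silencing arrays alone. In these arrays the 5 G1/S transcripts all had negative differences, with 1 called. With Dcp2 siRNA 1 of 11 rose, CDC20 at 0.43 (adjusted p = 0.0348), where 1.05% of all genes were called higher. All 11 were positive, beside 50.3% of all genes. The CDC20 call was lost without any Dcp2 array or non-silencing replicate 1 or 2. With LOC550643 siRNA CDK1, the mitotic kinase, fell by 0.62 (adjusted p = 0.0417), a call kept only without LOC550643 replicate 3, DcpS replicate 1 or 3 or GAPDH replicate 2 or 3. With GAPDH siRNA KIF20A fell by 0.74 (adjusted p = 0.0269), and was not called without GAPDH replicate 2 or non-silencing replicate 2 or 3.

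**Figure D4:**
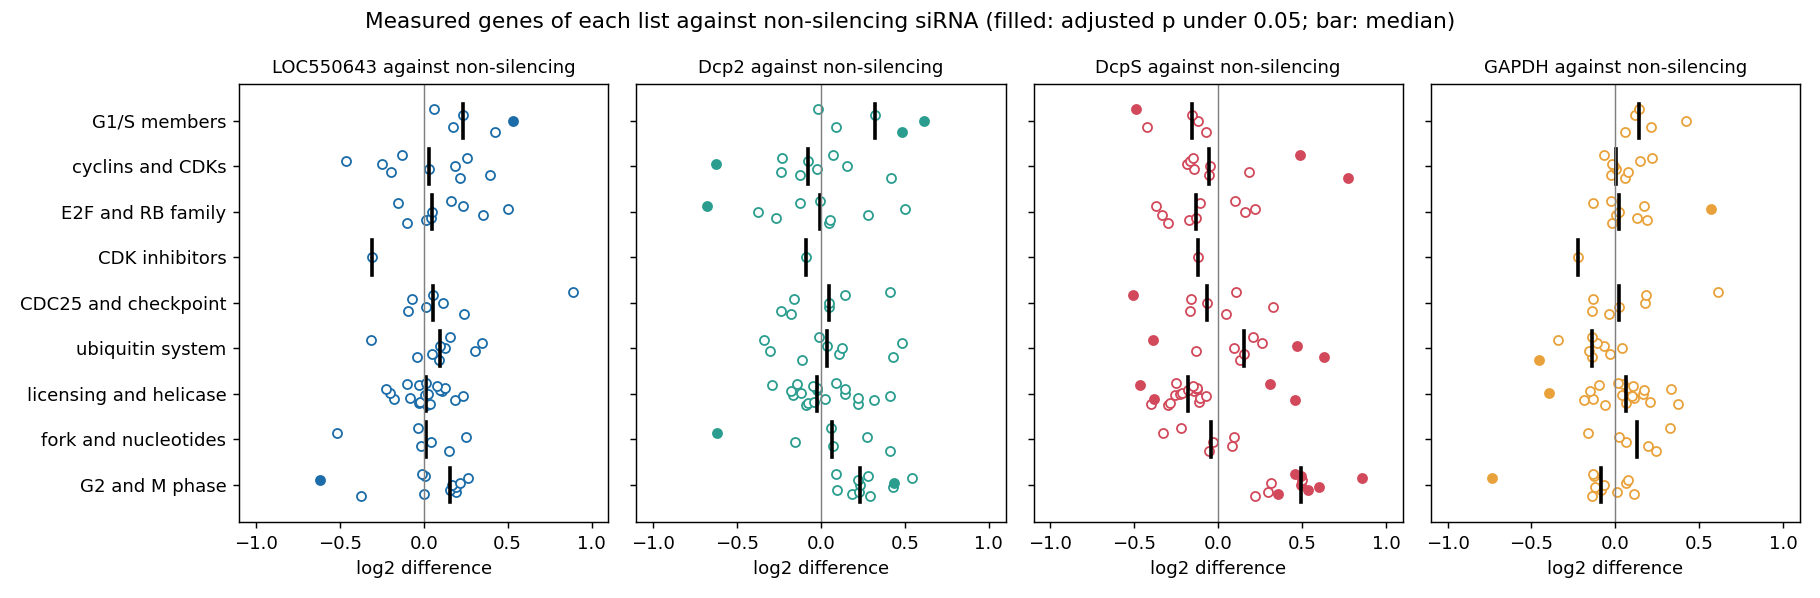
Log2 differences from non-silencing siRNA of the 5 members and of the measured genes of 8 lists, 1 point per gene, with filled points past an adjusted p of 0.05 and bars at the medians. With DcpS siRNA the G1/S members and the licensing genes have medians of -0.16 and -0.18, and the G2 and M phase genes 0.49.

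The genes whose values followed each member most closely were found by Pearson correlation over the 15 arrays. For MCM3 they were HAND1, PMAIP1 and REEP5 (0.98, 0.97 and 0.96), and for CCNE2 ZYG11B, MTF2 and SMIM13 (0.94, 0.93 and 0.92). For CDC25A they were RNF11, PNP and CHTOP (0.94, 0.92 and 0.92), for E2F1 PRPF4, CUTC and WDR62 (0.89, 0.88 and 0.88), and for CCNE1 RBM26, GNRHR2 and RAB3GAP1 (0.86, 0.85 and 0.85). The 15 arrays fall into 5 groups and share a normalization, so these values only describe likeness, and no gene was nearest to more than 1 member.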

How the data were processed

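Total RNA was measured on 15 arrays, with groups and replicate numbers taken from the sample labels. The deposited values are log2 probe set summaries made by the authors, per the submitters' processing notes with RMA and oligo, whose versions are not given in the sources used here, and the log base was inferred from the values. RMA makes the array distributions alike, so values show relative levels and not a shift of all transcripts. Of 53617 probe sets, 16098 were paired with 1 symbol, 0 with several and 37519 are unnamed here. Symbols were updated through the Entrez identifier. For the 779 genes with several probe sets the one with the highest mean was used, leaving 14884 genes. Detection calls were not used, and precision is limited by how many arrays there were.

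The linear model (limma 3.58.1, R 4.3.3) took all 15 arrays, with 1 mean per group and 10 residual degrees of freedom. Two-sided moderated p-values were adjusted by Benjamini-Hochberg over all genes within each of 10 pairwise contrasts and, likewise, for a moderated F test of the 4 contrasts against non-silencing siRNA. Replicate numbers, which the labels do not tie to a batch or day, were taken to pair samples where all 3 same-numbered pairs of 2 groups correlated above 0.1 in their deviations from the group means. This held for DcpS with non-silencing siRNA (0.394, 0.110 and 0.124) and for no other comparison. The model above has no such block for any comparison, and a fit with the block is given below as an alternative. Promoter sequences are from RefSeq, and scripts were tested on simulated data. The members and gene lists were chosen with earlier results of these data known. Named from the lists were, in each comparison with non-silencing siRNA, up to 4 called genes of each list by size of change, and for each member the 3 genes with the highest correlation.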

Additional observations from a re-analysis of the deposited data

How the results depend on the processing

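With only the groups compared in the fit, members called were 0 for LOC550643 and 0 for Dcp2 siRNA against non-silencing, 2 for LOC550643 and 2 for Dcp2 against DcpS, and 1 for DcpS against GAPDH siRNA, with fewer arrays to estimate the spread. Without dim genes, which leaves fewer genes to adjust over, they were 2 for LOC550643, 3 for Dcp2 (E2F1 added, adjusted p = 0.0337) and 2 for DcpS against non-silencing, 1 for LOC550643 and 1 for Dcp2 against GAPDH, and 4 for DcpS against GAPDH siRNA (E2F1 added, adjusted p = 0.044). With the axis score, the first component of the residuals, as a covariate, they were 2 for LOC550643, 3 for Dcp2 (E2F1 added, adjusted p = 0.0378), 2 for DcpS and 1 for GAPDH siRNA against non-silencing and 1 for Dcp2 against GAPDH siRNA. Quantile normalization gave 1 and limma's trend with robust 1 for Dcp2 against GAPDH siRNA. For these 2 the cause was not tested. The axis score was drawn from the residuals of these same arrays and holds 24.7% of their variance. As a covariate it leaves the differences unchanged and narrows the spread by its making. Calls gained with it are therefore no support for a difference. Leaving out 1 array gave 0 to 1 for LOC550643, 0 to 2 for Dcp2, 1 to 2 for DcpS and 0 for GAPDH siRNA against non-silencing. It gave 2 to 5 for LOC550643 and 4 to 5 for Dcp2 against DcpS, 0 to 1 for LOC550643 and 0 to 1 for Dcp2 against GAPDH, 2 to 4 for DcpS against GAPDH siRNA and 4 to 5 for the F test, with 4 without DcpS replicate 1 or 2.

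Signs turned for uncalled differences near 0. MCM3 with Dcp2 against non-silencing siRNA was 0.0018 after median centring, and -0.026 to 5.197e-05 without single arrays. Leaving out arrays moved CCNE1 with DcpS against non-silencing from -0.22 up to 0.0088, CDC25A there from -0.27 up to 0.00035, CCNE2 with LOC550643 against Dcp2 from -0.0058 up to 0.18, and CCNE2 with LOC550643 against GAPDH siRNA from -0.130 up to 0.0600. Of the members' log2 differences under all alternatives, 1070 kept direction and side of the threshold, 54 lost a call, 19 gained one and 7 changed sign. Over all genes the calls ranged from 53 to 621 (233 in the model of all arrays) for LOC550643, 39 to 1167 (294) for Dcp2, 104 to 1055 (538) for DcpS and 44 to 647 (297) for GAPDH siRNA against non-silencing. Each of these upper ends came from the axis score covariate, and each lower end from fits to only the groups compared. With DcpS siRNA the G2 and M phase list had 1 to 10 calls and the licensing list 0 to 6.

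The replicate block changed no count of members called (1 for LOC550643, 2 for Dcp2, 1 for DcpS and 0 for GAPDH siRNA against non-silencing). Against non-silencing siRNA, where DcpS arrays were taken to pair by number, it ended the calls of CLSPN (adjusted p = 0.0513) and MCMBP (0.0588) with DcpS siRNA. With DcpS siRNA it also took the licensing list to 3 calls and the G2 and M phase list to 9. It ended no other call of a member, or of a named list gene against non-silencing siRNA. The CCND1 calls given below were not refitted with the block. List genes not called in the model of all arrays were followed only through these list counts. Over all comparisons 9 of 30 same-numbered pairs correlated above 0.1. Taking the mean of a gene's probe sets left the members' values as they were, since each member has 1. No fit of each probe set was made.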

Other observations

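The cyclin D1 gene CCND1, a G1 cyclin from the list of kinases and cyclins, was higher with LOC550643 than with Dcp2 siRNA, by 0.52 log2 units (SE 0.10, limma adjusted p = 0.0114), at 6.83 with LOC550643 and 6.31 with Dcp2 siRNA (n = 3 each). It was also higher with LOC550643 than with DcpS siRNA, by 0.45 (SE 0.10, adjusted p = 0.0161), and than with GAPDH siRNA, by 0.42 (SE 0.10, adjusted p = 0.0298). Against non-silencing siRNA the difference of 0.40 was not called. The gene was chosen after its values were seen, and its calls were not followed in other settings or without single arrays. The 5 G1/S members did not pass the test between LOC550643 and Dcp2 siRNA. LOC550643 arrays enter all of these comparisons.

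CCNE2 had the same value to all digits given, 6.72 log2 units, on Dcp2 replicate 3, GAPDH replicate 2 and non-silencing replicate 2. A value shared by 3 or more arrays was found for 11135 probe sets, 20.8% of all.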
